A study of Homo sapiens with 9 samples.

Results

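The genes described here are 42 sensors, chaperones, folding enzymes and degradation factors of the endoplasmic reticulum (ER), chosen by name from a list of ER chaperones and unfolded protein response (UPR) genes. All 42 were found by symbol among the 58395 genes of each table. RNA sequencing was done on HCT116, an established human colon carcinoma line, in 9 libraries. Every group shared shSTBD1, an shRNA that targets the endogenous STBD1, which encodes a glycogen-binding membrane protein known for delivering glycogen to autophagosomes. The cells were stable lines made with the plvx vector and drug selection, and whether each was 1 clone was not stated. The 3 groups of 3 biological replicates were the empty vector (plvx neo), an shRNA-resistant wild-type STBD1 (STBD1 WT) and an shRNA-resistant STBD1 W203C, in which the tryptophan of the motif that binds LC3 and GABARAP proteins is replaced. The deposited tables are named with STBD1 WT and STBD1 W203C exchanged relative to the labels. Groups here are those of the labels, and exchanging them would turn the sign of the comparison between the constructs and swap the comparisons with plvx neo.

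The ER folds and exports secreted and membrane proteins. Proteins enter it through the SEC61 translocon, are bound by the chaperones BiP (HSPA5) and GRP94 (HSP90B1) and their co-chaperones, and, when glycosylated, by the lectins calnexin and calreticulin, while protein disulfide isomerases form their disulfide bonds. Proteins that fail to fold are sent back to the cytosol for proteasomal breakdown by ER-associated degradation (ERAD). When unfolded proteins accumulate, the sensors ATF6, IRE1 (ERN1) and PERK (EIF2AK3) start the UPR. Cleaved ATF6 and the transcription factor made from spliced XBP1 mRNA activate chaperone genes through the ER stress response element (ERSE) and related motifs, and PERK acts through ATF4. Intestinal and colon epithelium secretes heavily and is a tissue in which IRE1 and XBP1 are known to matter.

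The promoters are shown first, since these motifs connect the sensors with the chaperone genes whose RNA is described below. RefSeq promoter windows (GRCh38.p14, from 250 bases before to 50 after the annotated start) were given for 39 of the 42 genes and not for PDIA3, DERL1 and DERL3. Exact matches on both strands were counted to the ERSE (CCAAT, 9 bases, CCACG), to ERSE-II (ATTGG, 1 base, CCACG), to TGACGTGG, an ATF6 and XBP1 binding sequence that can share bases with ERSE-II, and to TGATGNAA, a sequence bound by dimers of ATF4 and C/EBP factors. The ERSE was present in 7 of the 39 windows (17.9%), against 22 of all 27305 windows of the same length (0.0806%). These sites are printed with 5 bases on each side so that the motif reads forward, with its defining bases in capitals.
HSPA5 (chr9:125241386-125241414, - strand): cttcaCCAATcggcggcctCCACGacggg
HSP90B1 upstream site (chr12:103930211-103930239, + strand): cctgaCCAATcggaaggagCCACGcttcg
HSP90B1 downstream site (chr12:103930316-103930344, - strand): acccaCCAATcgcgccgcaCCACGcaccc
CRELD2 (chr22:49918549-49918577, - strand): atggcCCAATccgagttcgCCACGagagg
CALR (chr19:12938379-12938407, - strand): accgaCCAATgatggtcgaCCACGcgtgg
CANX (chr5:179698773-179698801, + strand): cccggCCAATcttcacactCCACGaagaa
ERO1B (chr1:236282178-236282206, + strand): ggcggCCAATgaggcgggaCCACGcgggc
XBP1 (chr22:28800598-28800626, - strand): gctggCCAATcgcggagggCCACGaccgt
The HSPA5 site ended 48 bases before the annotated start and the XBP1 site 34 bases before it. HSP90B1 had a pair of sites, 1 on each strand. ERSE-II was present in 3 of the 39 windows (7.69%) against 0.0549% of all windows, and the same capitals mark its bases.
HYOU1 upstream site (chr11:119057375-119057395, + strand): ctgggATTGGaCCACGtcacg
HYOU1 downstream site (chr11:119057269-119057289, + strand): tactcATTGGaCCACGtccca
HERPUD1 (chr16:56932020-56932040, + strand): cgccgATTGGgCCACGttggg
SDF2L1 (chr22:21642109-21642129, - strand): ttttgATTGGtCCACGcttcc
TGACGTGG was found in 3 of the 39 windows (DNAJC10, HYOU1 and TXNDC11; 7.69% against 0.795% of all windows), and in HYOU1 it shared bases with the upstream ERSE-II. TGATGNAA was found in 1 window, that of HERPUD1 (2.56% against 3.67%). A match is a run of letters and does not show binding. The sites were chosen for printing after the matches were seen.

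The 250 bases before the RefSeq start are also given for the 4 genes that fell most and the 2 that rose in STBD1 WT relative to plvx neo, again with matches in capitals. Gene positions printed below come from another annotation, whose starts can differ. The DNAJB11 window and both HSP90B1 sites above lie inside those positions. HSPA5 held an ERSE and DNAJC10 a TGACGTGG read on the opposite strand, whereas the other windows held none of the 4 motifs.
DNAJB11 (chr3:186570470-186570719, + strand): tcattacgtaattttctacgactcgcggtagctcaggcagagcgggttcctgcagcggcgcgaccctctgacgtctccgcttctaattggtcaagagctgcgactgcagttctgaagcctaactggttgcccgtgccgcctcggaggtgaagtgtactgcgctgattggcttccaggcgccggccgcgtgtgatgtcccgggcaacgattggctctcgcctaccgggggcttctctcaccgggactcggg
MANF (chr3:51385041-51385290, + strand): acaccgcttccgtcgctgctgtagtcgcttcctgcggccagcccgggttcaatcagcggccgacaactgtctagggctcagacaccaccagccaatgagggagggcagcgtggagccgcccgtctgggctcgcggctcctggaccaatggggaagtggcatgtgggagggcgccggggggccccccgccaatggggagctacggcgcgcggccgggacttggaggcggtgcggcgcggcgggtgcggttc
TXNDC5 (chr6:7910789-7911038, - strand): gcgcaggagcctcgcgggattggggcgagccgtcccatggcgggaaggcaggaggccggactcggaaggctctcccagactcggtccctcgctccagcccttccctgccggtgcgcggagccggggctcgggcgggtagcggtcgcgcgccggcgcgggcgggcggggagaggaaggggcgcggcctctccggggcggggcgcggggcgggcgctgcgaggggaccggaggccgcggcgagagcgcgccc
HSPA5 (chr9:125241344-125241593, - strand): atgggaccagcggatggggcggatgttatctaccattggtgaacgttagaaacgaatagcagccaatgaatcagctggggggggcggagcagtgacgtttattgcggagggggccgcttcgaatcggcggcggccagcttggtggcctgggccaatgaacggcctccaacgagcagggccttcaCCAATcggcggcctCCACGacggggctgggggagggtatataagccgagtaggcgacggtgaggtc
DNAJC10 (chr2:182716007-182716256, + strand): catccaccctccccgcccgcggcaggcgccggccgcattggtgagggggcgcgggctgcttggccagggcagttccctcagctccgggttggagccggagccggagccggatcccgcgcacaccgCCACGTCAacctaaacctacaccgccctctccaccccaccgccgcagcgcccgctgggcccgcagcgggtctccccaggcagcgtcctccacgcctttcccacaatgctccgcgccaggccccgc
OS9 (chr12:57693882-57694131, + strand): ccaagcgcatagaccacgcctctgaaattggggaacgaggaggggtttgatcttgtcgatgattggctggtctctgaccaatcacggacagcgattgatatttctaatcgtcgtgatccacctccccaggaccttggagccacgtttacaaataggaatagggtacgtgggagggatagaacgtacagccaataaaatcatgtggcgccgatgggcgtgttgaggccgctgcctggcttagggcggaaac

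The libraries summed to between 16881429 and 23278126 expected counts. The targeted gene, STBD1, measured 2.75, 3.84 and 3.21 TPM (transcript abundance scaled to gene length and library size) in the plvx neo replicates, 10.8 to 10.9 with STBD1 WT and 8.37 to 10.3 with STBD1 W203C. The overlapping readthrough gene FAM47E-STBD1, with which reads of STBD1 can be shared, measured 0.96 to 2.41 TPM in plvx neo, 41.5 to 46.1 in STBD1 WT and 34.7 to 38.4 in STBD1 W203C. Both constructs lay above the vector control at either gene, and the values of STBD1 alone leave out reads assigned to the readthrough gene. Of 8 epithelial markers, 7 averaged above 1 TPM in every group, with VIL1 at 0.08 TPM or less, whereas DCN was listed at 0 in all 9 libraries and PTPRC reached at most 0.01 TPM. The summed TPM of 5 leukocyte markers was 4.28 to 7.46 in STBD1 WT against 1.9 to 2.74 in the other libraries, mostly from CD68, and that of 5 fibroblast markers was 12.8 to 21.8 over all libraries, mostly from COL1A1. Their part in the results was not tested.

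On the TPM scale, which allows for length, the 42 genes could be placed in order. Calreticulin (CALR) was highest at 674 TPM over the 9 libraries, followed by the proline isomerase cyclophilin B (PPIB, 502), HSP90B1 (422), HSPA5 (276) and the disulfide isomerase PDIA3 (275.5). HSPA5 and PDIA3 lay within each other's spread in plvx neo, 294.8 ± 4.9 and 298.8 ± 16.04 TPM. The sensors were far lower, with ATF6 at 8.05, ERN1 at 5.50 and EIF2AK3 at 5.46 TPM. DERL3, a derlin of ERAD, was listed at 0 to 0.16 TPM and was too low to test, so 41 genes were tested. Their median level was 50.2 TPM against 10.6 TPM for all genes tested, and more reads behind a gene let smaller changes pass a test. The summed TPM of the 42 genes was 3982 ± 39.4 in STBD1 WT, 4328 ± 91.4 in plvx neo and 4576 ± 44.7 in STBD1 W203C (mean ± SD, n = 3), and the 3 groups did not overlap. The median gap between gene length and effective length, which follows fragment size, averaged over a group's libraries, also moved with the groups, from 243.1 ± 3.76 bases in plvx neo to 256.7 ± 6.5 in STBD1 WT and 249.7 ± 6.22 in STBD1 W203C, and its part in the results was not tested.

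**Figure D1:**
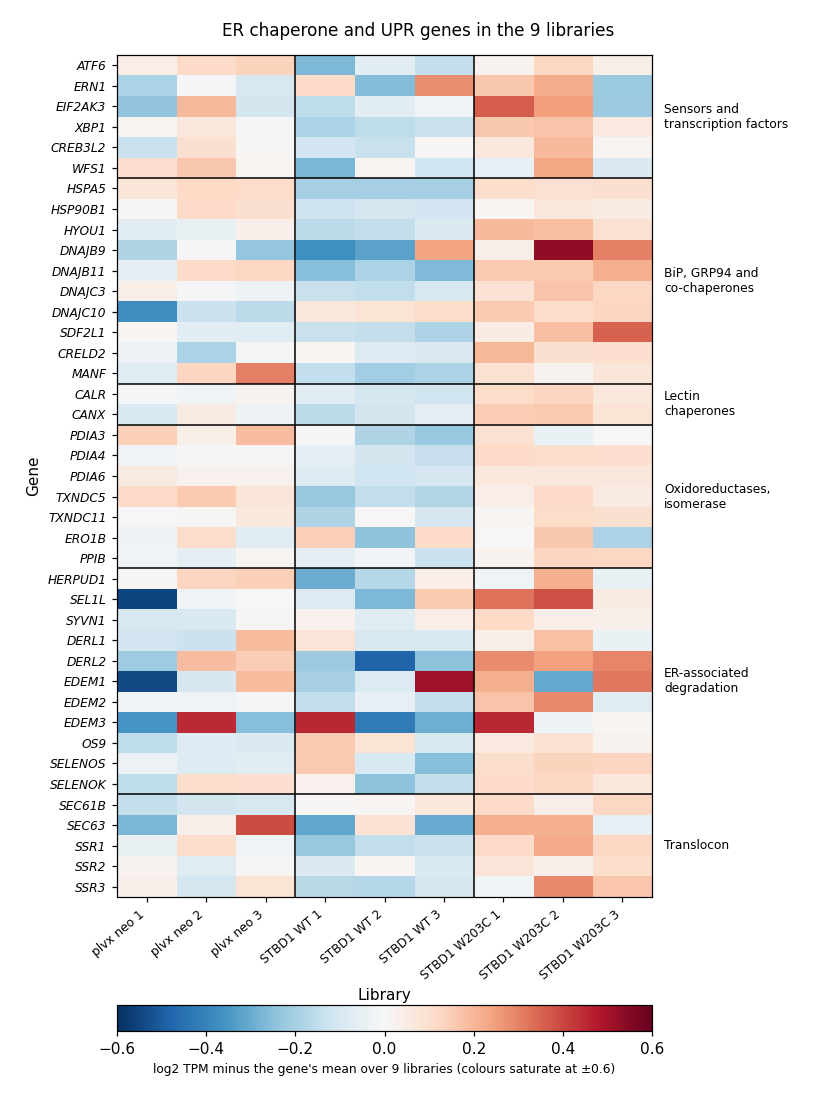
Each row is 1 of the 41 ER genes above the detection filter, each column 1 of the 9 libraries, and the colour is log2 TPM minus the gene's mean over the 9 libraries. The chaperone rows are mostly blue in the 3 STBD1 WT libraries and mostly red in the 3 STBD1 W203C libraries, whereas ERAD rows such as EDEM1 and EDEM3 vary widely within groups.

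Relative to plvx neo, the libraries labelled STBD1 WT had lower RNA of much of the ER folding machinery. With edgeR's quasi-likelihood test and Benjamini-Hochberg adjustment over all genes, 17 of the 41 genes changed at an adjusted p under 0.05 (41.5%, against 27.8% of all 15289 genes tested). Of these, 15 fell (36.6%, against 13.9% of all genes called lower) and 2 rose (4.88%, against 13.9% called higher). The median log2 fold change was −0.10 over the 41 genes and 0.01 over all genes, and 33 of the 41 values were negative. TPM did not overlap between the 2 groups for 20 of the 41 genes (48.8%, against 31.3% of all genes). All changes were small, and none reached 1.5-fold.

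Relative to STBD1 WT, the libraries labelled STBD1 W203C had higher RNA of ER chaperones and folding enzymes. Here 23 of the 41 genes changed (56.1%, against 27.9% of all 15052 genes), with 22 higher (53.7%, against 14.5%) and 1 lower (2.44%, against 13.4%). The median was 0.14 against −0.01 over all genes, and 23 genes did not overlap in TPM (56.1%, against 33.1%). Between STBD1 W203C and plvx neo few genes were called, with 2 of the 41 higher (4.88%, against 3.03% of all 15081 genes called higher), 0 lower (against 2.67%) and the 2 calls together set against 5.7% of all genes, while 10 of the 41 had an unadjusted p under 0.05 (24.4%, against 19.3% of all genes). DESeq2 also called 2 genes in that comparison. The median log2 fold change there was 0.05 against −0.003 over all genes, and 27 of the 41 values were positive. TPM did not overlap for 20 of the 41 genes (48.8%, against 20.2% of all genes). The 3 comparisons share libraries, so a high or low STBD1 WT group enters both of the first 2, and the values of each are given side by side below.

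**Figure D2:**
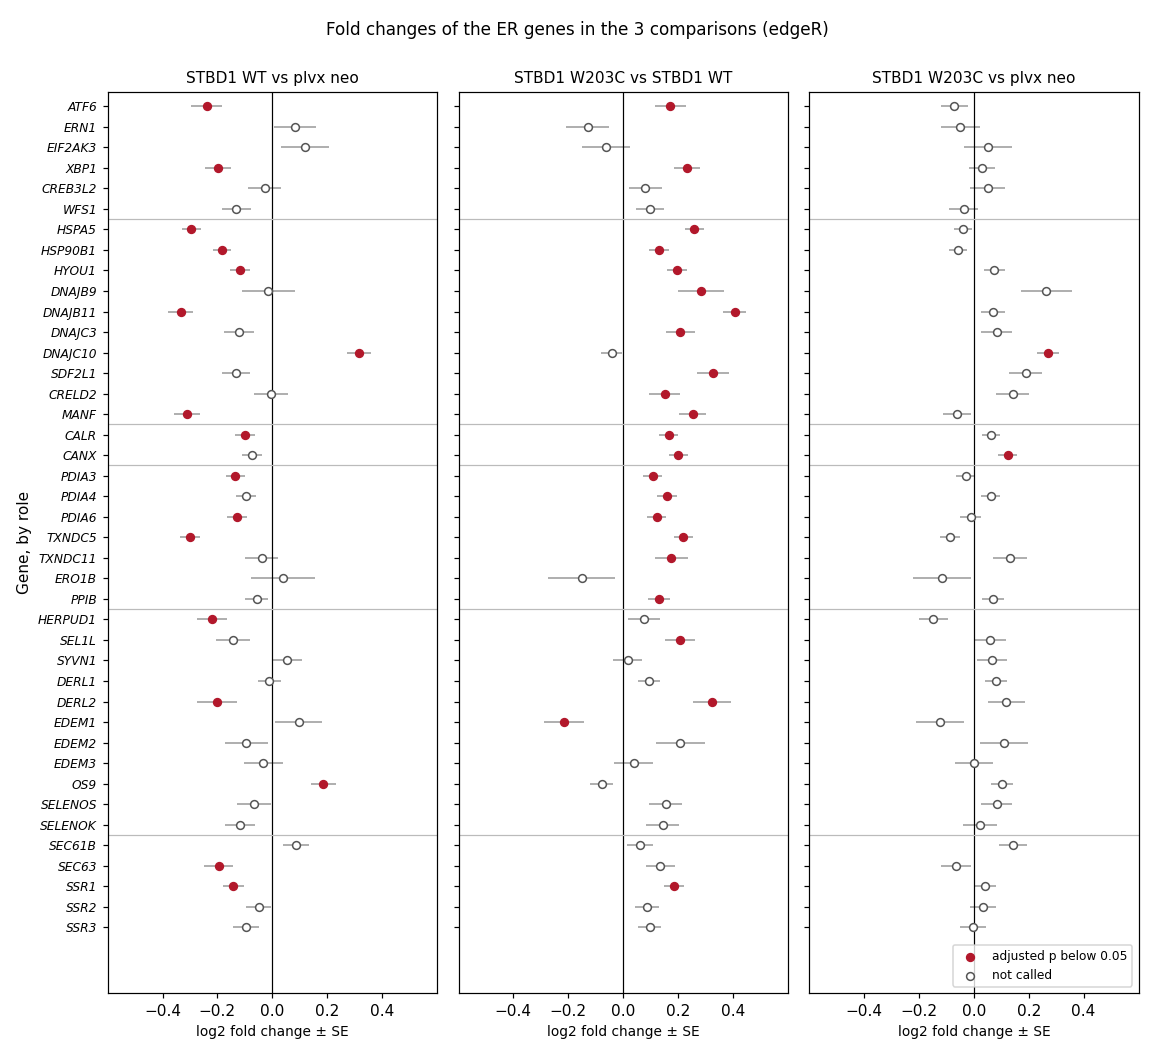
Points are edgeR log2 fold changes of the 41 ER genes with SE (horizontal bars) in the 3 comparisons, ordered by role, with filled points for an adjusted p below 0.05. Most points lie left of 0 in the first panel (33 of 41) and right of 0 in the second (35 of 41). In the third 27 of 41 lie right of 0, with a median of 0.05 and 2 calls.

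Among the 6 sensors and transcription factors, ATF6 and XBP1 fell in STBD1 WT and were higher in STBD1 W203C than in STBD1 WT, and the other 4 were not called. The share called was 33.3% in each comparison, against 13.9% of all genes lower in the first and 14.5% higher in the second. ATF6, the membrane-bound sensor that is cleaved into a transcription factor (chr1:161766298-161977574, + strand, hg38), measured 8.25, 8.69 and 8.79 TPM in plvx neo replicates 1 to 3, 6.65, 7.68 and 7.27 in STBD1 WT and 8.15, 8.75 and 8.22 in STBD1 W203C. The 3 STBD1 WT libraries were the lowest of the 9. Its log2 fold change was −0.24 ± 0.0563 (SE) in STBD1 WT relative to plvx neo (adjusted p = 0.00321) and 0.17 ± 0.057 in STBD1 W203C relative to STBD1 WT (adjusted p = 0.0273). The second call was lost without any 1 of 3 of the 6 libraries (up to 0.133) and with DESeq2. XBP1, whose mRNA is spliced by IRE1 to encode an activator of chaperone and ERAD genes (chr22:28794555-28800597, − strand), measured 50.6, 52.5 and 49.8 TPM in plvx neo, 43.8, 45.0 and 45.6 in STBD1 WT and 55.9, 56.3 and 52.1 in STBD1 W203C. STBD1 WT was again below both other groups in each library, with log2 fold changes of −0.20 ± 0.0468 (adjusted p = 0.00322) and 0.23 ± 0.0466 (adjusted p = 0.000715). The gene-level counts do not separate spliced from unspliced XBP1 mRNA.

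The other sensors gave no call in these comparisons. ERN1, which encodes IRE1, measured 4.78, 5.42 and 5.11 TPM in plvx neo, 5.91, 4.56 and 6.62 in STBD1 WT and 6.10, 6.36 and 4.67 in STBD1 W203C, with overlapping groups and log2 fold changes of 0.08 ± 0.0767 (adjusted p = 0.459) and −0.13 ± 0.0782 (adjusted p = 0.238). EIF2AK3, which encodes PERK, measured 4.59, 6.18 and 5.00 TPM in plvx neo, 4.86, 5.16 and 5.33 in STBD1 WT and 6.94, 6.43 and 4.64 in STBD1 W203C. Its groups overlapped as well, and its log2 fold changes were 0.12 ± 0.0873 (adjusted p = 0.339) and −0.06 ± 0.0882 (adjusted p = 0.644). The TPM means of EIF2AK3 in both comparisons, and of ERN1 between the constructs, differed in the other direction, and the cause was not tested. CREB3L2, an ER-stress transducer related to ATF6, and WFS1, the wolframin membrane protein, were not called either. RNA levels do not show whether a sensor was active.

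**Figure D3:**
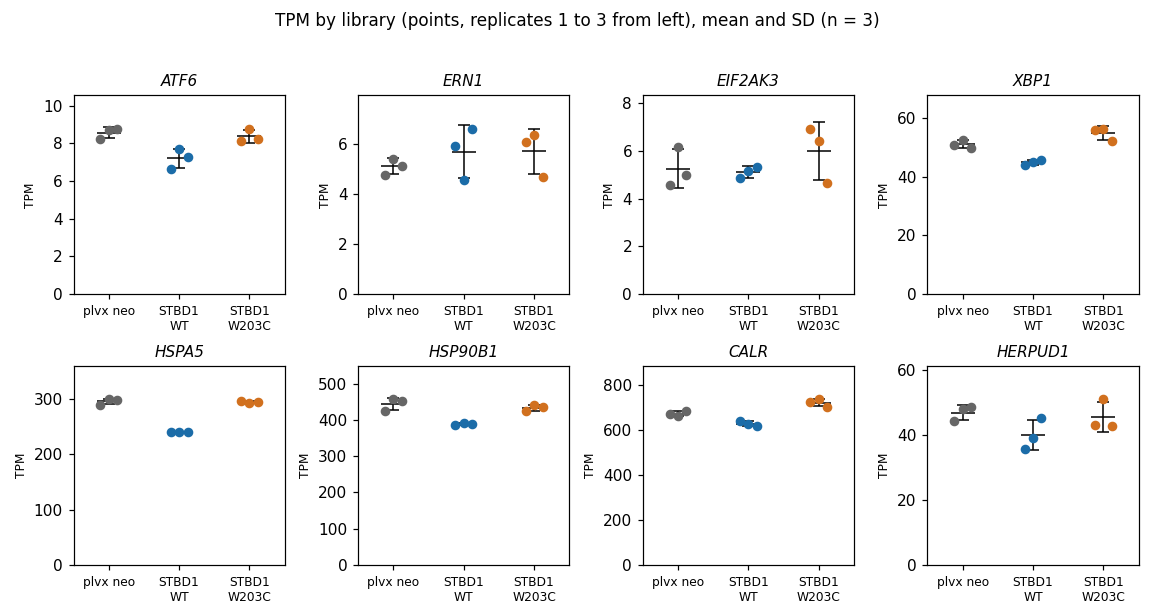
TPM of 8 named genes in each library (points), with the group mean and SD (n = 3 per group), on axes that start at 0. The 3 STBD1 WT libraries have HSPA5 at 239.0 to 239.6 TPM, below the other 6, which sit between 289 and 298 TPM, whereas ERN1 and EIF2AK3 overlap in all groups.

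BiP, GRP94 and their co-chaperones were called in both directions. Of these 10 genes, 5 fell and 1 rose in STBD1 WT relative to plvx neo, against 13.9% of all genes in each direction. The falls were above that share and the single rise was under it. In STBD1 W203C relative to STBD1 WT 9 of the 10 were higher, against 14.5% of all genes. HSPA5, the central chaperone of the ER lumen and the sensors' partner (chr9:125234853-125241382, − strand), measured 289, 298 and 297 TPM in plvx neo, 239.4, 239.0 and 239.6 in STBD1 WT and 295, 293 and 294 in STBD1 W203C. The vector and W203C libraries overlapped, and each STBD1 WT library lay below all of them. HSPA5 fell by 18.5% in STBD1 WT relative to plvx neo. The log2 fold changes were −0.29 ± 0.0335 (adjusted p = 1.72e-06) and, in STBD1 W203C relative to STBD1 WT, 0.26 ± 0.0351 (19.7% higher, adjusted p = 1.18e-05). HSP90B1, the ER form of HSP90 (chr12:103930107-103953931, + strand), measured 423, 456 and 451 TPM in plvx neo, 387, 392 and 389 in STBD1 WT and 425, 442 and 435 in STBD1 W203C, with STBD1 WT lowest in every library. Its log2 fold changes were −0.18 ± 0.0337 (adjusted p = 0.000381) and 0.13 ± 0.0355 (adjusted p = 0.00815).

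DNAJB11, a BiP co-chaperone of the DnaJ family that binds unfolded clients (chr3:186567403-186585800, + strand), had the largest fall of the 41 genes in STBD1 WT and the largest rise between the constructs by edgeR on counts, whereas on the ratio of mean TPM DERL2 changed by more. It measured 74.6, 84.0 and 84.6 TPM in plvx neo, 64.9, 68.0 and 64.6 in STBD1 WT and 86.4, 86.6 and 90.2 in STBD1 W203C. The groups were ordered with no overlap, STBD1 W203C highest. The log2 fold changes were −0.33 ± 0.0454 (adjusted p = 1.59e-05) and 0.41 ± 0.0416 (32.65% higher, adjusted p = 3.39e-07). By edgeR on counts DNAJB11 was not called in STBD1 W203C relative to plvx neo (0.07 ± 0.0434, adjusted p = 0.415). MANF, a secreted factor retained in the ER that binds BiP, measured 99.1, 113.9 and 128.5 TPM in plvx neo, 94.1, 90.1 and 91.4 in STBD1 WT and 111.0, 105.8 and 109.5 in STBD1 W203C. Its plvx neo libraries spread widely around those of STBD1 W203C, and STBD1 WT lay below both, at −0.31 ± 0.0483 (adjusted p = 6.91e-05) and 0.25 ± 0.0496 (adjusted p = 0.00057). HYOU1, the large ER chaperone that exchanges nucleotide on BiP, changed by −0.12 ± 0.0367 (adjusted p = 0.0221, lost without any 1 of 2 libraries, up to 0.113) and 0.20 ± 0.0372 (adjusted p = 0.000435).

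A further 4 co-chaperones were called between the constructs and not in STBD1 WT relative to plvx neo, a contrast of calls that was not itself tested. SDF2L1, a partner of DNAJB11 in the BiP complex, measured 152.6, 144.7 and 144.8 TPM in plvx neo, 138, 137 and 133 in STBD1 WT and 156, 172 and 193 in STBD1 W203C. The 3 groups did not overlap, and the W203C libraries were spread more widely than the other groups. Its log2 fold change was 0.33 ± 0.058 between the constructs (adjusted p = 0.000227) and −0.13 ± 0.0499 in STBD1 WT relative to plvx neo (adjusted p = 0.0541). In STBD1 W203C relative to plvx neo SDF2L1 was not called (0.19 ± 0.06, adjusted p = 0.0666). DNAJB9, a co-chaperone that brings BiP to IRE1, measured 8.65, 9.75 and 8.33 TPM in plvx neo, 7.59, 7.84 and 11.5 in STBD1 WT and 10.0, 14.2 and 12.1 in STBD1 W203C, so STBD1 WT replicate 3 overlapped W203C. It was 0.28 ± 0.0847 higher in STBD1 W203C (adjusted p = 0.0152, lost without any 1 of 2 libraries, up to 0.0781, and with DESeq2). DNAJC3, a co-chaperone of the ER lumen also known as p58IPK, measured 10.4, 10.1 and 9.93 TPM in plvx neo, 9.26, 9.17 and 9.51 in STBD1 WT and 10.8, 11.5 and 11.1 in STBD1 W203C. With no overlap between the constructs, it was 0.21 ± 0.0526 higher in STBD1 W203C (adjusted p = 0.00488). CRELD2, an ER-resident protein inducible by ER stress, was 0.15 ± 0.0559 higher (adjusted p = 0.0479), a call lost without any 1 of 5 libraries (adjusted p up to 0.165) and with DESeq2.

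DNAJC10 (ERdj5), a disulfide reductase that works with BiP in ERAD (chr2:182716255-182794464, + strand), went the other way. It measured 30.0, 35.4 and 34.8 TPM in plvx neo, 40.7, 41.1 and 41.8 in STBD1 WT and 43.2, 41.8 and 42.5 in STBD1 W203C. Both constructs lay above the vector in every library and overlapped each other. It rose by 0.32 ± 0.0444 in STBD1 WT (adjusted p = 2.23e-05) and by 0.27 ± 0.0417 in STBD1 W203C (adjusted p = 0.000162) relative to plvx neo, and the constructs differed by −0.04 ± 0.04 (adjusted p = 0.473).

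Both lectin chaperones were higher in STBD1 W203C than in STBD1 WT, against 14.5% of all genes. CALR, the soluble calcium-binding lectin (chr19:12938578-12944489, + strand), measured 669.6, 663 and 683 TPM in plvx neo, 641, 624 and 619 in STBD1 WT and 726, 735 and 703 in STBD1 W203C. The groups did not overlap, with STBD1 WT lowest and STBD1 W203C highest. Its log2 fold changes were 0.17 ± 0.0359 between the constructs (adjusted p = 0.00146) and −0.10 ± 0.0358 in STBD1 WT relative to plvx neo (adjusted p = 0.046). The second call was lost without any 1 of 4 of the 6 libraries (adjusted p up to 0.173). In STBD1 W203C relative to plvx neo CALR was not called (0.06 ± 0.0335, adjusted p = 0.324). CANX, the membrane-anchored lectin calnexin, measured 204, 226 and 213 TPM in plvx neo, 195, 202 and 209.98 in STBD1 WT and 242, 243 and 231 in STBD1 W203C. STBD1 W203C was above all other libraries, by 0.20 ± 0.0352 relative to STBD1 WT (adjusted p = 0.000198) and by 0.12 ± 0.0339 relative to plvx neo (adjusted p = 0.0306, lost without any 1 of 4 libraries, up to 0.2).

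Of 7 oxidoreductases and isomerases, PPIB included, 3 fell in STBD1 WT relative to plvx neo (42.9%, against 13.9% of all genes). In STBD1 W203C relative to STBD1 WT 6 were higher (85.7%, against 14.5%). TXNDC5, a disulfide isomerase with several thioredoxin domains, measured 125, 129 and 122 TPM in plvx neo, 98.9, 104 and 102 in STBD1 WT and 119, 125 and 119.8 in STBD1 W203C. STBD1 WT lay below both other groups, at −0.30 ± 0.0368 (adjusted p = 4.27e-06) and 0.22 ± 0.035 (adjusted p = 7.35e-05), and TXNDC5 shares exons with the readthrough gene BLOC1S5-TXNDC5. PDIA6 and PDIA3, isomerases that act with BiP and with the lectins, fell by 0.13 on the log2 scale in STBD1 WT (adjusted p = 0.0157 and 0.00547) and were 0.12 and 0.11 higher in STBD1 W203C (adjusted p = 0.013 and 0.0241). Leaving out 1 library ended the fall of PDIA6 in 2 of 6 cases (adjusted p up to 0.0958), its rise in 1 (0.0502) and the rise of PDIA3 in 2 (up to 0.0832). PDIA4, TXNDC11 and PPIB were called between the constructs, at 0.16, 0.18 and 0.13. The TXNDC11 call was lost without any 1 of 5 of the 6 libraries (adjusted p up to 0.109) and with DESeq2, and that of PPIB without any 1 of 3 (up to 0.107). PDIA4, which carries an extra thioredoxin domain, did not overlap between STBD1 WT (124 to 131 TPM) and STBD1 W203C (146 to 148 TPM). ERO1B, the oxidase that recharges the isomerases, was the lowest gene tested at 2.60 TPM and was not called.

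ERAD genes were called in both directions at shares near those of all genes. Of 11 tested, 2 fell (18.2%, against 13.9%) and 1 rose (9.09%, against 13.9%) in STBD1 WT. Between the constructs 2 were higher (18.2%, against 14.5%) and 1 lower (9.09%, against 13.4%) in STBD1 W203C. HERPUD1, a membrane scaffold of the ERAD complex and a strongly ER-stress-inducible gene (chr16:56932142-56944864, + strand), measured 44.3, 48.1 and 48.7 TPM in plvx neo, 35.9, 39.1 and 45.3 in STBD1 WT and 43.2, 51.1 and 42.7 in STBD1 W203C. Replicate 3 of STBD1 WT overlapped both other groups. It fell by 0.22 ± 0.0537 in STBD1 WT (adjusted p = 0.00427), and the constructs differed by 0.08 ± 0.0568 (adjusted p = 0.345). DERL2, a derlin channel component, measured 30.1, 39.6 and 38.6 TPM in plvx neo, 30.0, 25.0 and 29.4 in STBD1 WT and 42.4, 41.4 and 42.8 in STBD1 W203C. The first plvx neo library sat beside those of STBD1 WT. DERL2 fell by 0.20 ± 0.0725 in STBD1 WT (adjusted p = 0.0442, lost without any 1 of 4 libraries, up to 0.189, and with DESeq2) and was 0.32 ± 0.0702 higher in STBD1 W203C (adjusted p = 0.00146). Its log2 ratios of mean TPM were larger, at −0.36 and 0.58, against −0.30 and 0.41 for DNAJB11, and the cause was not tested.

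SEL1L, the adaptor that links substrates to the ubiquitin ligase HRD1 (SYVN1), measured 8.02, 11.6 and 11.7 TPM in plvx neo, 11.1, 9.74 and 13.1 in STBD1 WT and 14.7, 15.3 and 12.2 in STBD1 W203C. The constructs overlapped in TPM, while its counts were 0.21 ± 0.0543 higher in STBD1 W203C (adjusted p = 0.00651). OS9, a lectin that recognizes glycans of misfolded proteins, measured 63.3, 66.8 and 66.4 TPM in plvx neo, 78.6, 74.7 and 65.9 in STBD1 WT and 73.4, 75.0 and 71.4 in STBD1 W203C. Replicate 3 of STBD1 WT lay within the vector range, and its rise in STBD1 WT was 0.19 ± 0.0444 (adjusted p = 0.00345), with exons shared with AGAP2-AS1. EDEM1, a mannosidase-like factor that extracts misfolded glycoproteins, measured 5.12, 5.56 and 8.35 TPM in STBD1 WT and 6.82, 4.75 and 7.32 in STBD1 W203C. These libraries overlapped, and the fall of 0.22 ± 0.0724 (adjusted p = 0.0299) was lost without any 1 of 4 libraries (up to 0.147) and with DESeq2. SYVN1, DERL1, EDEM2, EDEM3, SELENOS and SELENOK were not called in any comparison.

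Of the 5 translocon genes, SEC63 and SSR1 fell in STBD1 WT and SSR1 was higher in STBD1 W203C than in STBD1 WT. SEC63, the DnaJ-type membrane protein that brings BiP to the channel, measured 15.5, 19.2 and 24.6 TPM in plvx neo and 15.1, 19.9 and 15.2 in STBD1 WT. These groups overlapped in TPM, with a change of −0.20 ± 0.0527 on counts (adjusted p = 0.00854). SSR1, the alpha subunit of the translocon-associated protein complex, changed by −0.14 ± 0.0396 (adjusted p = 0.011, lost without plvx neo replicate 1, 0.0565) and 0.19 ± 0.037 (adjusted p = 0.000686). SSR2 and SSR3, further subunits of that complex, and SEC61B, a small channel subunit, were not called.

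Across the 3 comparisons, 13 of the 41 genes (31.7%, against 9.5% of all 14956 genes tested in both) fell in STBD1 WT relative to plvx neo and were higher in STBD1 W203C than in STBD1 WT, 2 comparisons that share the STBD1 WT libraries: ATF6, XBP1, HSPA5, HSP90B1, HYOU1, DNAJB11, MANF, CALR, PDIA3, PDIA6, TXNDC5, DERL2 and SSR1. With limma on log2(TPM + 1) 6 of the 41 genes (14.6%) were called both ways, against 3.82% of all genes: DNAJB11, HSP90B1, HSPA5, PDIA6, TXNDC5 and XBP1. By edgeR another 8 were higher in STBD1 W203C than in STBD1 WT with no other call, and 14 were not called at all. The log2 fold changes of those 14 ran from −0.13 to 0.12, from −0.15 to 0.21 and from −0.12 to 0.14 in the 3 comparisons. No called gene had a TPM mean on the other side of its count change, whereas 5, 4 and 5 uncalled genes did. Among the 41 genes, those with an ERSE in the promoter window were lower in STBD1 WT in 4 of 7 cases and higher in STBD1 W203C than in STBD1 WT in 6 of 7, with medians of −0.10 and 0.17. The 32 genes with a window and no exact ERSE gave 10 lower and 2 higher, then 15 higher and 1 lower, with medians of −0.10 and 0.14. Over all genes 13.9% were called lower and 13.9% higher in the first comparison, and 14.5% higher and 13.4% lower in the second.

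Other protein-folding genes were read from 10 lists of 120 related genes, of which 117 were tested. In STBD1 WT relative to plvx neo 36 were lower (30.8%, against 13.9% of all genes) and 10 higher (8.55%, against 13.9%). In STBD1 W203C relative to STBD1 WT 42 were higher (35.9%, against 14.5%) and 12 lower (10.3%, against 13.4%). Between STBD1 W203C and plvx neo 4 were higher and 4 lower (3.42% each, against 3.03% and 2.67%). Oligosaccharyltransferase subunits attach glycans to proteins entering the ER. Of 10 tested, 4 were lower in STBD1 WT (OSTC −0.23 ± 0.0459, RPN2 −0.16 ± 0.0375), against 13.9% of all genes. In STBD1 W203C relative to STBD1 WT 5 of the 10 were higher, against 14.5%. Of 14 other translocon and signal peptidase genes, 2 were lower (14.3%, against 13.9%) and then 3 higher (21.4%, against 14.5%). Among them were SRPRB (−0.20 ± 0.0485 and 0.35 ± 0.0547), a subunit of the signal recognition particle receptor, and SEC61A1, the channel itself (0.27 ± 0.0365 between the constructs and 0.20 ± 0.038 in STBD1 W203C relative to plvx neo). Among 9 calnexin-cycle and glycan-processing genes, 2 were lower in STBD1 WT (22.2%, against 13.9%). Between the constructs 3 of the 9 were higher (33.3%, against 14.5%) and 1 lower (11.1%, against 13.4%). Of 15 other oxidative folding genes 3 were lower and 2 higher in STBD1 WT, against 13.9% of all genes in each direction. TXNDC12, a small thioredoxin-like oxidoreductase, was at −0.39 ± 0.0412. Between the constructs 4 were higher (against 14.5%) and 2 lower (against 13.4%), with the oxidase ERO1A at −0.29 ± 0.0444. The higher calls in STBD1 WT and the lower calls between the constructs were just under the shares of all genes. Among 16 other ERAD genes 2 were lower (12.5%) and 1 higher (6.25%) in STBD1 WT, at or under the shares of all genes, and 5 were higher (31.2%) and 2 lower (12.5%) between the constructs. Among 17 other UPR branch genes tested 2 were lower (11.8%, against 13.9%) and 3 higher (17.6%, against 13.9%) in STBD1 WT. Between the constructs 3 were higher (17.6%, against 14.5%) and 3 lower (17.6%, against 13.4%).

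Targets of PERK and ATF4 did not move as 1 group. Of 10 tested, 4 were lower and 2 higher in STBD1 WT relative to plvx neo, against 13.9% of all genes in each direction. Between the constructs 3 were higher (against 14.5%) and 3 lower (against 13.4%). In STBD1 W203C relative to plvx neo 3 were lower (against 2.67%) and 1 higher (against 3.03%). The 10 include ATF4 and ATF3, described below. ATF4 is among the lower genes in both comparisons with plvx neo. ATF3 is 1 of the 2 higher genes in STBD1 WT and the only higher gene in STBD1 W203C relative to plvx neo. CHAC1, which degrades glutathione, fell by 0.85 ± 0.117 in STBD1 WT (adjusted p = 1.71e-05) and by 0.68 ± 0.137 in STBD1 W203C (adjusted p = 0.00262). TRIB3, a pseudokinase that restrains ATF4, fell by 0.58 ± 0.0524 (adjusted p = 7.41e-08) and by 0.40 ± 0.0639 (adjusted p = 0.00025). Both constructs were below the vector for these genes. ATF4 itself was also lower in both constructs (−0.30 ± 0.0349 and −0.26 ± 0.0336, adjusted p = 2.6e-06 and 1.47e-05), whereas ATF3, a stress-induced transcription factor, was higher in both (0.53 ± 0.0493 and 0.28 ± 0.0486, adjusted p = 1.07e-07 and 0.000743), and these 2 genes were added after their values were seen. Between the constructs the largest changes in this list were lower DDIT4 (−0.31 ± 0.0701), an inhibitor of mTORC1, and lower ATF3 (−0.25 ± 0.0386). Of 6 ER-phagy receptors, CALCOCO1 was 0.58 ± 0.0801 higher in STBD1 WT and −0.59 ± 0.0838 in STBD1 W203C relative to STBD1 WT, and RTN3 fell by 0.11 on the log2 scale in STBD1 WT. In STBD1 WT 1 of the 6 was thus called in each direction (16.7%, against 13.9% of all genes).

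Folding genes outside the ER changed as well. All 12 cytosolic heat shock genes were called in STBD1 WT relative to plvx neo, with a median of −0.35. Of these, 11 were lower (91.7%, against 13.9% of all genes) and 1 higher (8.33%, against 13.9%). In STBD1 W203C relative to STBD1 WT 10 were higher (83.3%, against 14.5%), with a median of 0.35. HSPA8, the constitutive cytosolic HSP70, was 0.53 ± 0.0474 higher between the constructs (adjusted p = 6.96e-08). HSPA1A and HSPA1B, the inducible HSP70 genes, had log2 fold changes of −0.84 ± 0.172 and −0.75 ± 0.0479 in STBD1 WT relative to plvx neo, but they are near-identical copies and the split of reads between them is uncertain. Of 8 mitochondrial chaperones and proteases, 5 were lower in STBD1 WT (62.5%, against 13.9%), among them DNAJA3 (−0.33 ± 0.0426) and HSPA9 (−0.30 ± 0.0354). Relative to STBD1 WT, 6 were higher in STBD1 W203C (75.0%, against 14.5%), among them HSPE1 (0.30 ± 0.0376) and HSPD1 (0.30 ± 0.0369). In STBD1 W203C relative to plvx neo, 2 of the 12 cytosolic genes were called higher by edgeR (16.7%, against 3.03% of all genes). They were HSPB1 (0.17 ± 0.0387) and HSP90AB1 (0.11 ± 0.0302). Of the 8 mitochondrial genes 0 were called, against 5.7% of all genes in either direction. An unadjusted edgeR p under 0.05 was reached by 6 cytosolic and 0 mitochondrial genes, above and below the 19.3% of all genes.

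**Figure D4:**
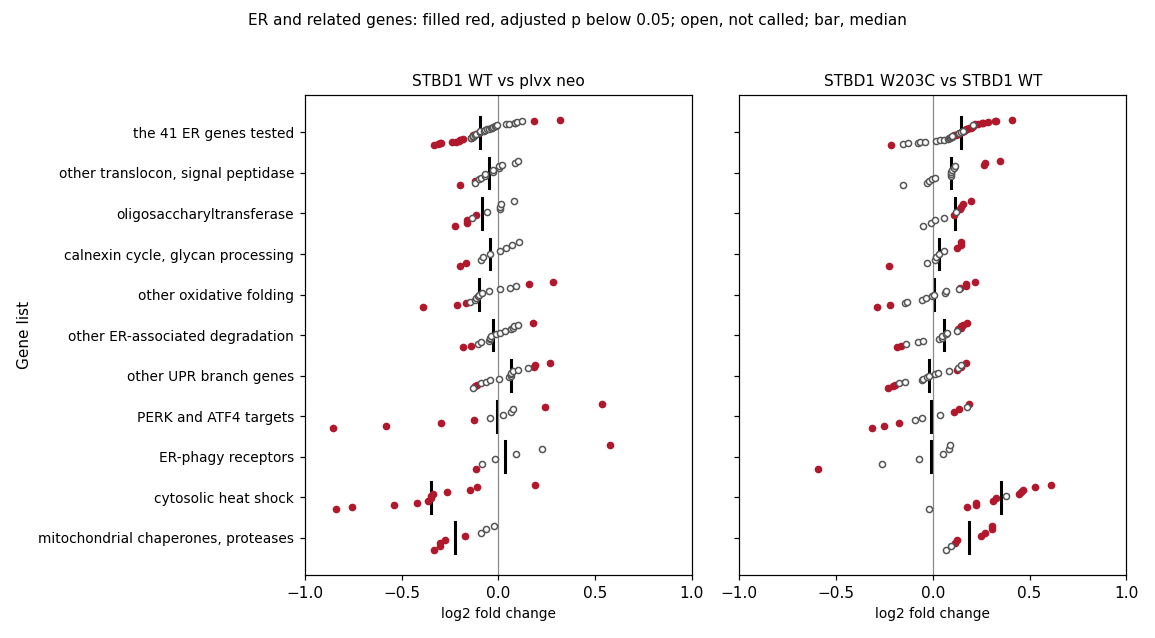
Each point is the edgeR log2 fold change of 1 gene, by list, in STBD1 WT relative to plvx neo (left) and STBD1 W203C relative to STBD1 WT (right), with filled points for an adjusted p below 0.05 and a bar at each list's median. The cytosolic heat shock list has medians of −0.35 and 0.35, compared with −0.10 and 0.14 for the 41 ER genes.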

How the data were processed

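Total RNA was made into NEBNext Ultra libraries by the authors and sequenced paired end, aligned to hg38 with STAR 2.7.1a and quantified with RSEM 1.3.1, per the study's methods and processing notes. The deposited tables give an expected count per gene, which RSEM estimates by sharing reads that match several genes, and a TPM value. Strand use in counting was not stated, and 22 of the 42 genes share exon bases with another annotated gene. Gene symbols were matched for 98.9% of identifiers, and gene positions come from a later annotation release on the same build.

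Expected counts were rounded and tested with edgeR 4.0.16 in R 4.3.3 (filterByExpr, TMM, glmQLFit, glmQLFTest, two-sided). Each comparison used its own 6 libraries, p-values were Benjamini-Hochberg adjusted over all genes tested, and a gene was called below 0.05. A fold change is a log2 value with SE taken from the F statistic. Biological coefficients of variation were 4.05% to 4.21%. Replicates differed beyond counting noise, with a chi-square per gene of 2.12 to 3.87. Library totals were 16881429 to 23278126, and a count carries counting error that is larger for low genes such as ERO1B. No batch or date was given in the labels. The scripts were tested on simulated data.

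The 42 genes, the related lists and the tests were chosen with earlier results of these data known. Values are given for ATF6, ERN1, EIF2AK3, XBP1, HSPA5, HSP90B1, CALR and HERPUD1 whatever their result, for called genes up to the 10 largest rises and 10 largest falls per comparison, and for at most 2 called genes per related list and comparison. A few further called genes are valued that this rule did not ask for. Uncalled genes are given by range. Alternatives were DESeq2 1.42.0, limma 3.58.1 on log2(TPM + 1) or log2(TPM + 0.1), other size factors, no filter, all 9 libraries, a replicate block, a GC and length correction, and leaving out each library.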

Additional observations from a re-analysis of the deposited data

How the results depend on the processing

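No called ER gene changed direction under any alternative. With other size factors, no filter, all 9 libraries, DESeq2 or the GC and length correction, the number of called genes stayed within 1.5 times the main 17, 23 and 2 for STBD1 WT relative to plvx neo, STBD1 W203C relative to STBD1 WT and STBD1 W203C relative to plvx neo. Leaving out each library gave 14 to 18, 18 to 21 and 1 to 2 calls, the last falling to 1 without plvx neo replicate 3 or STBD1 W203C replicate 2. Requiring a 1.5-fold change left 0, 0 and 0 genes. DESeq2 at an unadjusted p under 1e-05 gave 6, 9 and 1. limma gave 9, 15 and 0 on log2(TPM + 1), 9, 15 and 0 on log2(TPM + 0.1), and 3, 13 and 0 on log2(TPM + 1) without a filter, and the cause was not tested. Whether replicate numbers pair the libraries was not given in the labels. Same-numbered libraries deviated together with a mean r of 0.0139 (9 pairs, −0.0124 to 0.0677), against −0.0069 for differently numbered ones (18 pairs). Such values cannot show which libraries were prepared together. With a replicate block the counts were 18, 21 and 3, and with the block and the GC and length correction 23, 27 and 4. The GC and length correction alone gave 24, 28 and 3 calls, and it moved the calls among all genes from 2128 higher and 2126 lower to 1615 and 3328 (32.7% higher) in STBD1 WT relative to plvx neo, and the share higher from 51.8% to 69.4% between the constructs. On log2(TPM + 1) that share was 68.8% between the constructs and 74.0% in STBD1 W203C relative to plvx neo, where the main share was 53.2%. The median change of the 41 genes tested in STBD1 WT relative to plvx neo was −0.10 from TPM and −0.093 from TMM-scaled CPM.

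Calls that rest on single libraries were these. In STBD1 WT relative to plvx neo, CALR was lost without plvx neo replicate 1 or 3 or STBD1 WT replicate 2 or 3 (adjusted p up to 0.173), DERL2 without plvx neo replicate 2 or 3 or STBD1 WT replicate 2 or 3 (up to 0.189), HYOU1 without plvx neo replicate 1 or STBD1 WT replicate 1 (up to 0.113), PDIA6 without plvx neo replicate 1 or STBD1 WT replicate 2 (up to 0.0958) and SSR1 without plvx neo replicate 1 (0.0565). Between the constructs, CRELD2 (up to 0.165) was kept only without STBD1 WT replicate 1 and TXNDC11 (up to 0.109) only without STBD1 W203C replicate 1. EDEM1 was lost without STBD1 WT replicate 1 or 3 or STBD1 W203C replicate 1 or 2 (up to 0.147), ATF6 without STBD1 WT replicate 1 or 3 or STBD1 W203C replicate 2 (up to 0.133), PPIB without STBD1 WT replicate 3 or STBD1 W203C replicate 2 or 3 (up to 0.107), DNAJB9 without replicate 2 of either construct (up to 0.0781), PDIA3 without STBD1 WT replicate 3 or STBD1 W203C replicate 1 (up to 0.0832) and PDIA6 without STBD1 WT replicate 2 (0.0502). CANX in STBD1 W203C relative to plvx neo was lost without plvx neo replicate 1 or 3 or STBD1 W203C replicate 1 or 2 (up to 0.2). Among the called genes and the 8 genes named throughout, signs turned for the uncalled ERN1 and EIF2AK3. On TPM with limma (pseudocount 1, 0.1 and 1 without a filter), EIF2AK3 was −0.025, −0.028 and −0.025 in STBD1 WT relative to plvx neo and 0.18, 0.21 and 0.18 between the constructs, and ERN1 was 0.0058, 0.0072 and 0.0058 between the constructs and 0.13, 0.15 and 0.13 in STBD1 W203C relative to plvx neo. With 1 library left out, ERN1 ran from −0.0010 to 0.14 in STBD1 WT relative to plvx neo and EIF2AK3 from −0.12 to 0.016 between the constructs, turning without STBD1 WT replicate 3. Depth limits the low genes most, such as ERO1B at 166 to 206 counts a library. The data hold 1 cell line with 1 set of stable lines, so line and construct cannot be told apart.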
